A study of Mus musculus with 7 samples.

Results

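The genes described here are 10 that carry acetyl-CoA to palmitate: the mitochondrial citrate carrier Slc25a1, the acetyl-CoA and acetoacetyl-CoA forming enzymes Acly, Acss2 and Aacs, malic enzyme Me1, the acetyl-CoA carboxylases Acaca and Acacb, fatty acid synthase Fasn, and the regulatory proteins Thrsp and Mid1ip1. They were picked by name for their place in the pathway, with earlier results of these data known. They came out of 18193 genes with a probe set of their own, and all 10 passed the filter on dim signals. The array holds 24 probe sets annotated to 1 of these symbols, and a gene was read on its probe set of highest mean log2 signal over the 7 arrays. One further probe set, which Acss2 shares with another gene, was left out. RNA came from whole mammary glands of virgin female FVB mice, 8 weeks of age, all with the PyV-MT transgene (polyoma virus middle T), an oncogene that causes mammary tumours. Glands of 4 mice whose chow contained 1% CLA (conjugated linoleic acid, isomers of linoleic acid with conjugated double bonds) were compared with glands of 3 mice on control AIN93G chow. Feeding began at 4 weeks of age and lasted 4 weeks, and the study placed 6 mice on the CLA diet and 5 on the control diet. The labels do not name the promoter that drives the oncogene. The series title names FAS, fatty acid synthase, as suppressed by CLA.

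Fatty acid synthesis takes place in the cytosol. Citrate leaves the mitochondrion through Slc25a1 and is cleaved by Acly to acetyl-CoA, which Acss2 can also make from acetate, and the carboxylases add carbon dioxide to give malonyl-CoA. Fasn then joins acetyl and malonyl units into palmitate with NADPH that Me1 helps to supply. In the mammary gland the pathway is active both in adipocytes of the fat pad and, during lactation, in the secretory epithelium.

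Values were MAS5 signal intensities, already scaled by the authors to 1 trimmed mean, 500.003 on each array. The level of one gene cannot be set against that of another, because probe sets differ in brightness, so only differences between glands are compared. Changes were tested with limma on log2 signals over 12497 genes, and 0 genes passed at an adjusted p under 0.05, while 674 had an unadjusted p under 0.05. The 10 genes had limma adjusted p values between 0.294 and 0.993, so the calls below are at an unadjusted p under 0.05. Nothing in the labels separates animals from samples beyond naming a mouse for each array. The titles carry a number that starts with 27 on control replicate 1 and CLA replicate 1 and with 28 on the other arrays, and the labels do not say what it stands for. The 9 luminal epithelial markers, which are keratins, claudins, Cdh1, Epcam, Elf5 and Esr1, summed to between 96602 and 105238 on CLA arrays and between 90486 and 112689 on control arrays, so epithelial transcripts were present in every gland.

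Of the 10 genes, 7 had lower signal in CLA glands at an unadjusted p under 0.05, where 3.01% of all genes tested did, and 0 had higher signal, where 2.38% did (5.39% in either direction). A negative change was measured for 9 of the 10, where 44.7% of all genes had one. The CLA arrays lay wholly below the control arrays for those 7 genes, where 2.67% of all genes did, and wholly above them for 1, where 2.64% did. For the other 2, Acly and Aacs, the groups overlapped. The median log2 change of the 10 was -0.68, against 0.03 over all genes tested. Fasn was known to be lower before its neighbours were listed, and all 10 were chosen with earlier results of these data known. This count thus describes the pathway and is not separate evidence for the direction.

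**Figure D1:**
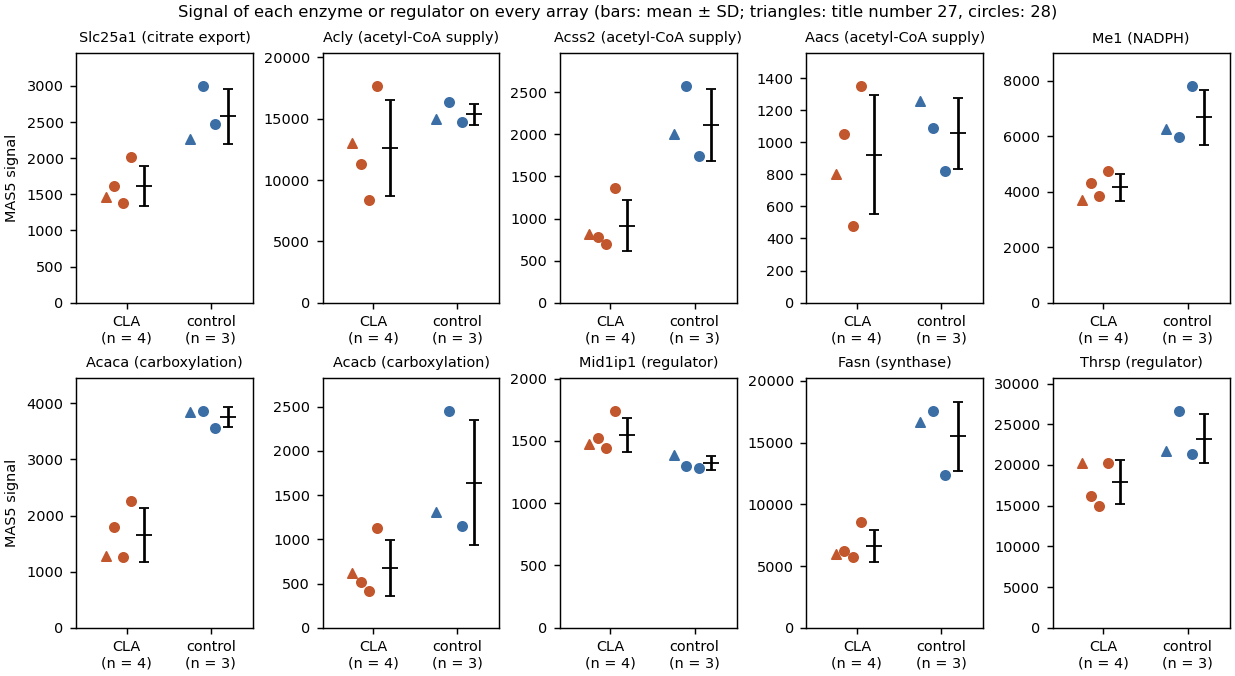
MAS5 signal (linear axes from 0) of the 10 genes on each of the 4 CLA and 3 control arrays, with the mean and SD of each group beside the points and triangles for title numbers starting with 27. Fasn, Acaca and Acss2 are clearly separated between diets, Acly and Aacs overlap, and Mid1ip1 is slightly higher on all 4 CLA arrays.

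Slc25a1, which exports citrate and so provides the carbon, had signals of 1458, 1619, 1380 and 2010 on the CLA arrays, against 2263, 3004 and 2469 on the control arrays. All CLA glands were below all control glands, with a gap between the nearest arrays of 0.17 on the log2 scale. Its log2 change was -0.68 ± 0.17 (SE; limma adjusted p = 0.688), a signal 62.5% of that in control glands.

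Of the enzymes that supply acetyl-CoA, the acetate enzyme was apart between diets, and those that start from citrate and acetoacetate overlapped. Acss2, which activates acetate, had 817, 779, 692 and 1361 on CLA arrays, against 2008, 2580 and 1749 on control arrays. The groups were apart, and CLA replicate 4 stood nearest to the controls. The log2 change was -1.24 ± 0.24 (SE), 2.37-fold lower (limma adjusted p = 0.363). Acly, ATP citrate lyase, had 13025, 11299, 8379 and 17704 on CLA arrays, against 14995, 16338 and 14758 on control arrays. CLA replicate 4 was above every control gland and CLA replicate 3 far below them, so the groups overlapped and the CLA glands varied more. The log2 change of Acly, -0.34 ± 0.22 (SE) with 95% limits of -0.82 and 0.15, did not pass. Without CLA replicate 4 it was -0.52, and passed at an unadjusted p under 0.05 (limma adjusted p = 0.641). Aacs, acetoacetyl-CoA synthetase, which activates the ketone body acetoacetate in the cytosol, had 801, 1051, 481 and 1353 on CLA arrays, against 1259, 1092 and 819 on control arrays. Its highest and lowest signals both came from CLA glands. The log2 change of -0.27 ± 0.32 (SE) did not pass, and it was 0.01 without CLA replicate 3.

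Me1, which makes NADPH while turning malate into pyruvate, had 3701, 4311, 3855 and 4747 on CLA arrays, against 6240, 5984 and 7820 on control arrays. The groups were apart, and this gene varied little among the CLA glands. The log2 change was -0.68 ± 0.14 (SE; limma adjusted p = 0.423), a size close to that of Slc25a1.

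Both carboxylases had lower signal. Acaca is acetyl-CoA carboxylase 1, the cytosolic source of malonyl units for chain building. It had 1283, 1787, 1253 and 2265 on CLA arrays, against 3850, 3867 and 3553 on control arrays. The control glands lay close together, and the gap between the nearest arrays, 0.65 on the log2 scale, was the widest among the 10 genes. The log2 change of Acaca was -1.23 ± 0.21 (SE; limma adjusted p = 0.294). Acacb, acetyl-CoA carboxylase 2, whose malonyl-CoA acts at mitochondria to restrain fatty acid oxidation, had 624, 521, 416 and 1127 on CLA arrays, against 1312, 2454 and 1155 on control arrays. CLA replicate 4 came within 0.04 log2 units of the lowest control gland, and control replicate 2 stood far above the other controls. The log2 change of Acacb was -1.31 ± 0.36 (SE; limma adjusted p = 0.688), and -0.98 without control replicate 2. As the mean of its probe sets it was -0.76 and no longer under 0.05 unadjusted, which takes in a dim second probe set, at 2.57 to 64.6 on CLA arrays and 4.00 to 25.4 on control arrays, with a change of -0.20 ± 1.14.

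Fasn, the synthase itself, had 5997, 6191, 5761 and 8576 on CLA arrays, against 16652, 17578 and 12341 on control arrays. The highest CLA gland, replicate 4, was below the lowest control gland, replicate 3, by 0.52 on the log2 scale. Its log2 change of -1.23 ± 0.18 (SE) ranked first by p among all genes tested (limma adjusted p = 0.294). Acaca ranked 8, Acss2 17 and Me1 25, so 4 of the 10 genes stood among the 25 of smallest p. Without CLA replicate 4 the limma adjusted p was 0.0231 for Fasn, 0.0301 for Acaca and 0.0322 for Acss2, with log2 changes of -1.36, -1.40 and -1.45. In that setting 17 of the 12497 genes passed, so this was not particular to the pathway. Among them were the white adipocyte markers Retn, Fabp4, Lpl and Cd36 and the gene Hsd11b1, at limma adjusted p from 0.0124 to 0.0346. With any other array left out, or under the other settings tried, none of the 10 passed after adjustment.

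On their brightest probe sets the regulators had smaller differences between diets than Fasn. Thrsp, also called Spot 14, a nuclear and cytosolic protein that promotes lipogenesis in liver, fat and mammary epithelium, had 20203, 16230, 14919 and 20273 on CLA arrays, against 21702, 26666 and 21352 on control arrays. The groups were apart by 0.07 on the log2 scale only. The log2 change was -0.38 ± 0.15 (SE; limma adjusted p = 0.867). It was no longer under 0.05 unadjusted without control replicate 2, CLA replicate 2 or CLA replicate 3, or with untrended variances. Mid1ip1, a relative of Thrsp that promotes the assembly of acetyl-CoA carboxylase into active filaments, had 1476, 1522, 1444 and 1742 on CLA arrays, against 1384, 1299 and 1284 on control arrays. Each CLA gland was above each control gland, yet the log2 change of 0.22 ± 0.13 (SE) did not pass, and its 95% interval ran from -0.07 to 0.52. With arrays centred on their medians it was 0.30 and passed unadjusted (limma adjusted p = 0.700).

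**Figure D2:**
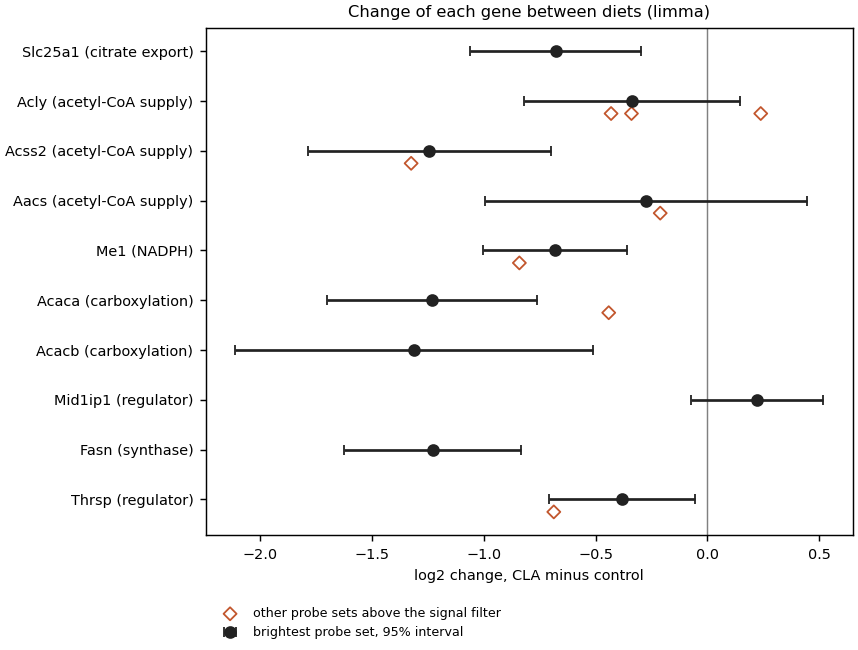
Log2 change (CLA minus control) of the 10 genes with 95% limma intervals on the brightest probe set, and the other probe sets above the signal filter as open diamonds. Acss2, Acaca, Acacb and Fasn lie between -1.31 and -1.23, Slc25a1 and Me1 at -0.68, and Mid1ip1 above 0.

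By size of change, Acacb, Acss2, Acaca and Fasn had changes from -1.31 to -1.23, Me1 and Slc25a1 had -0.68 each, and Thrsp, Acly and Aacs had between -0.38 and -0.27. The standard errors, 0.13 to 0.36, are larger than the steps between neighbours within a level. For 4 pairs the difference between the 2 changes was itself tested, by two-sided exact permutation of the per-array difference over 35 splits, in which the smallest possible p is 0.0571. The change of Acss2 minus that of Acly was -0.91 (exact p = 0.0571, adjusted over the 4 pairs 0.0762), and minus that of Aacs -0.97 (exact p = 0.0571, adjusted 0.0762), both with groups that did not overlap. The change of Thrsp minus that of Mid1ip1 was -0.60 (exact p = 0.0571, adjusted 0.0762), again without overlap. With means of probe sets, dim ones included, these 3 differences were -1.55, -1.62 and -1.19, at the same exact p. These are the smallest p this design allows, so no pair could pass the threshold. The pairs were made from genes chosen with earlier results of these data known, and the adjustment covers these 4 pairs only. Acaca and Acacb differed by 0.08 in their change (exact p = 0.857), and with an array left out this difference ran from -0.23 to 0.25.

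Within title numbers starting with 27, with 1 array a group, and within those starting with 28, the changes of Fasn were -1.47 and -1.13, of Acaca -1.58 and -1.11, of Acss2 -1.30 and -1.24 and of Acacb -1.07 and -1.43. Those of Slc25a1 were -0.63 and -0.72 and those of Me1 -0.75 and -0.67. Thrsp had -0.10 and -0.49, Acly -0.20 and -0.39, Aacs -0.65 and -0.10, and Mid1ip1 0.09 and 0.28. All of the 10 genes except Mid1ip1 thus had lower CLA signal in both sets of arrays. The share of all genes that did so is not given here. With this number as a block 7 of the 10 genes were lower at an unadjusted limma p under 0.05. The share of all genes lower in that fit is not given here either, so the count has no background beside it.

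Most genes had a second reading on another probe set. Of the 24 probe sets 18 were at or above the filter signal of 57.7, and of the 8 that were not the brightest of their gene 7 had a negative change. The CLA arrays lay wholly below the control arrays for 2 of these 8, those of Acss2 and Me1, where 3.78% of all probe sets did. In a limma fit over all 45037 probe sets, where 3.3% were lower at an unadjusted p under 0.05, the second Acss2 probe set had a log2 change of -1.33 ± 0.31 (SE), the second of Me1 -0.84 ± 0.15 and the second of Thrsp -0.69 ± 0.21, all 3 lower by that measure. The Thrsp pair thus differed in size, -0.69 against -0.38, and on the second probe set CLA replicate 1, at 10994, was above the lowest control array, at 10767. The other bright Acly probe sets had -0.34 and -0.43 and that of Aacs -0.21, none of which passed. A dim second Acaca probe set, at 75.4 to 186 on CLA arrays and 116 to 293 on control arrays, had -0.44 ± 0.42 and did not pass. Fasn, Slc25a1 and Mid1ip1 have 1 probe set each, so their values have no second reading.

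**Figure D3:**
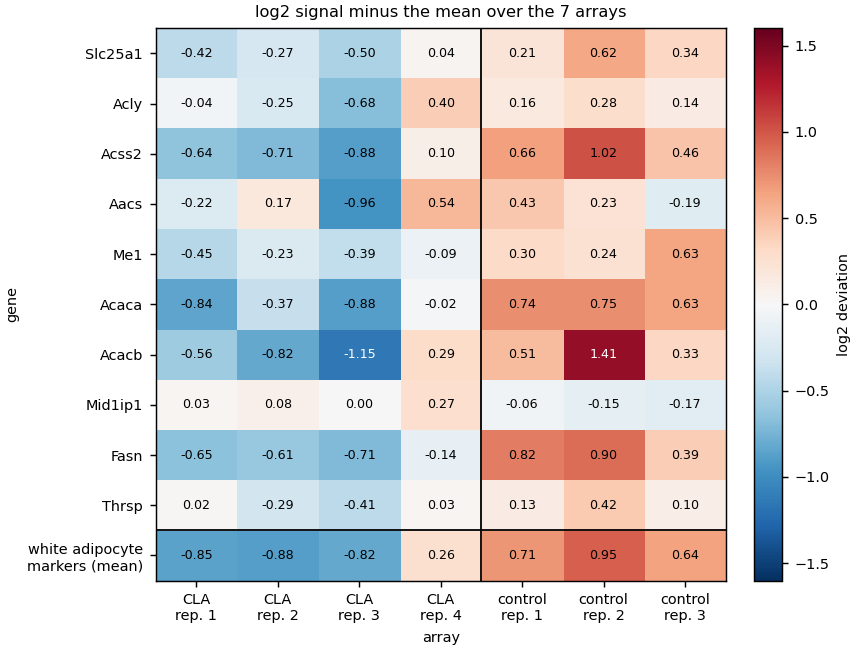
Log2 signal of each gene on each array minus that gene's mean over the 7 arrays, with the mean of 12 white adipocyte markers in the bottom row. CLA replicates 1 to 3 are below 0 for Fasn, Acaca, Acacb, Acss2, Slc25a1 and Me1, and CLA replicate 4 has the highest CLA value in every row.

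Within a group the arrays kept much the same order from gene to gene. CLA replicate 4 had the highest CLA signal for all 10 genes and CLA replicate 3 the lowest for 9, the exception being Me1. Among controls, replicate 2 was highest for 7 genes and replicate 3 lowest for 8. The share of all genes with these orders is not given here. The median signal over all probe sets had the same ends among CLA arrays, 111.3 on replicate 4 and 98.9 on replicate 3. Among controls this median was highest on replicate 1, at 113.4, and lowest on replicate 3, at 112.0. CLA replicate 3 also had the highest ratio of 3′ to 5′ Actb control signal, which reads RNA integrity, at 2.78, while the 6 other arrays had 1.41 to 1.88. Its part in the low values of that array was not tested. Without CLA replicate 3 the log2 changes were -1.17 for Fasn, -1.12 for Acaca and -1.13 for Acss2.

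White adipocyte markers, among them the lipid handling genes Cd36 and Lpl and the hormone gene Retn, had lower signal in the same glands. All 12 markers analysed had a negative change and 11 an unadjusted p under 0.05. Their summed signal was 19885 to 42657 on CLA arrays, against 53393 to 65389 on control arrays, and their median log2 change was -1.40. Bright genes weigh most in such a sum. Fabp4 alone had 8171 to 19323 on CLA arrays and 25087 to 31236 on control arrays. None of the 12 was under the filter signal of 57.7 on all CLA arrays, but the lowest single CLA signal among them was 14.2. Such dim signals also enter the marker mean used below. The changes of single markers ran from -2.14 to -0.38. The highest CLA sum again came from replicate 4, whose markers deviated by 0.26 on average, while CLA replicates 1 to 3 had -0.88 to -0.82. In bulk tissue, fewer adipocytes and less RNA per adipocyte cannot be told apart. Brown adipocyte markers summed to 929 to 4973 on CLA arrays, against 3506 to 16741 on control arrays, with 7 of 7 changes negative, and skeletal muscle markers to 396 to 16921, against 11405 to 102039, with 10 of 10 negative. At an unadjusted p under 0.05, 6 of the 7 brown adipocyte and 10 of the 10 muscle markers were lower. The summed signals of both lists overlapped between diets, and their part in the changes of the 10 genes was not tested. Luminal markers had a median change of 0.00, and 0 of 9 had an unadjusted p under 0.05. Milk protein genes, with a median of -0.65, had 0 of 6, macrophage markers, with 0.06, had 1 of 6 lower, fibroblast markers, with 0.25, had 0 of 6, and endothelial markers, with -0.09, had 0 of 4. Basal and myoepithelial markers had a median of 0.63, and 3 of 8 were higher, the keratins Krt5, Krt14 and Krt17. Another 3 of the 8 had negative changes, the lowest -0.59, which did not pass.

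Set against the mean of the 12 adipocyte markers on the same array, Fasn differed by 0.11 between diets on the log2 scale. Centred on its mean over arrays, this relative signal was 0.05 ± 0.30 (SD, n = 4) in CLA glands and -0.06 ± 0.18 (SD, n = 3) in control glands (two-sided exact permutation p = 0.514). This difference was smaller than the SD of either group. With an array left out it ran from 0.02 to 0.26. The highest value came without CLA replicate 4, where the 3 remaining CLA glands, at 0.114 to 0.272, lay above all control glands, at -0.250 to 0.109 (exact p = 0.1, the smallest that split allows). With 64 added to each signal it was -0.05. The relative differences of Acss2, Acaca and Acacb were 0.10, 0.11 and 0.03, with groups that overlapped. Me1 had 0.66 and overlapped too. The other 5 genes were higher in all CLA glands relative to the markers, Slc25a1 by 0.66, Thrsp by 0.96, Acly by 1.01, Aacs by 1.07 and Mid1ip1 by 1.56. That count is read against 72.2% of all genes, which were higher without overlap on the same scale, with a median difference of 1.37. None of the 10 was lower without overlap, where 0.024% of all genes were. 

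**Figure D4:**
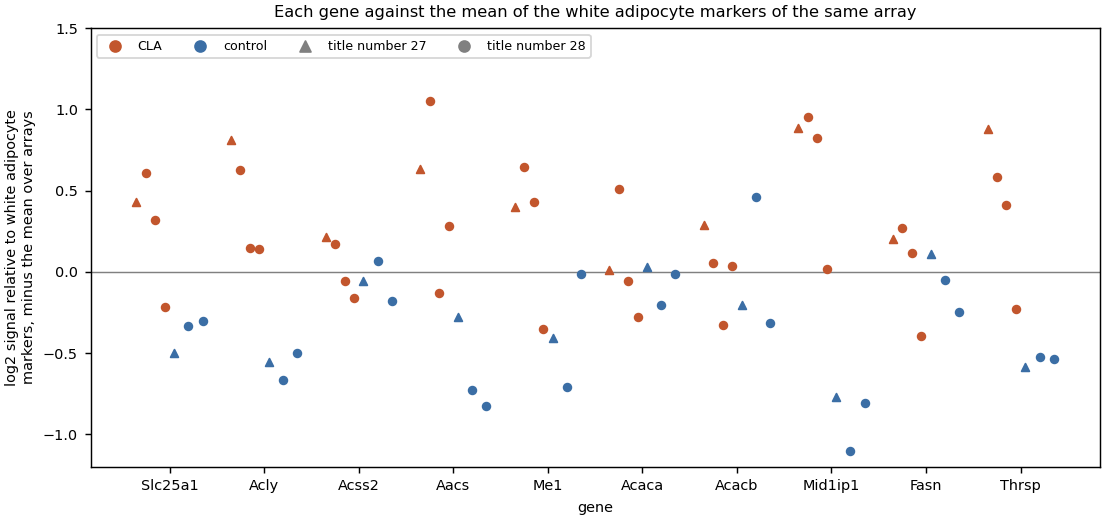
Log2 signal of each gene minus the mean of 12 white adipocyte markers on the same array, centred on the gene's mean over the 7 arrays, CLA left of control for each gene. Fasn, Acaca, Acacb and Acss2 scatter around 0 in both groups, while all 4 CLA points of Mid1ip1, Acly, Aacs, Thrsp and Slc25a1 lie above their control points.

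Genes next to the pathway were read from lists of their own. Among those that use palmitate, 4 of 5 analysed had lower signal at an unadjusted p under 0.05 and 0 higher: the elongase Elovl6 had a log2 change of -0.73 ± 0.18 (SE), the desaturase Scd1 -0.50 ± 0.14, and Olah, the thioesterase that releases medium-chain fatty acids from the synthase, -1.70 ± 0.50. Of 9 transcription factors and their partners 2 were lower, the carbohydrate response factor gene Mlxipl at -1.04 ± 0.32 and Usf1, which binds E-boxes, at -0.62 ± 0.24, and 0 were higher. Nr1h3, the liver X receptor alpha gene, had -0.36 ± 0.27 and did not pass. Of the 9 changes 5 were negative and 4 positive, the highest 0.18, and Srebf1 had 0.01 ± 0.18. The 6 genes of citrate formation all had negative changes and 1 of 6 passed, Pcx, pyruvate carboxylase, at -0.86 ± 0.30, while Mdh1 had -0.44 ± 0.24 and Pdha1 -0.23 ± 0.13. Of the other NADPH producers 0 of 5 passed, with Mthfd1 at 0.54 ± 0.30, Pgd at -0.18 ± 0.11 and Me3 at -0.66 ± 0.48. Whether they differ from Me1 was not tested.

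Other branches showed no call. Of 6 genes that remove malonyl-CoA or control the carboxylases 0 passed, with the kinase subunits Prkaa2 and Prkaa1 at -0.32 ± 0.20 and 0.29 ± 0.25 and the malonyl-CoA decarboxylase gene Mlycd at -0.22 ± 0.19. The separate fatty acid synthesis system of mitochondria had 0 of 5 and a median of -0.03, with Oxsm at -0.23 ± 0.21, Mcat at 0.10 ± 0.20 and Cbr4 at 0.06 ± 0.18. The branch that takes acetyl-CoA to cholesterol had 0 of 4 and a median of 0.12, with Sqle at 0.28 ± 0.24, Hmgcs1 at -0.12 ± 0.14 and Idi1 at 0.22 ± 0.26.

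Likeness to Fasn across arrays was measured as the root mean square difference between centred log2 signals over the 7 arrays, where a smaller value means a more similar profile, as a description. The median over the 12496 other genes was 0.72. Acss2 was the nearest of all genes at 0.14 and Acaca the third at 0.18. Slc25a1 ranked 37, Acacb 50, Me1 97, Thrsp 232, Acly 348, Aacs 996 and Mid1ip1 7173. The 6 nearest genes outside the pathway were Hsd11b1, which regenerates active glucocorticoid, at 0.15, the coenzyme Q gene Coq8a at 0.21, Gpd1, which makes glycerol 3-phosphate for triglyceride, at 0.21, the mitophagy receptor gene Bnip3 at 0.22, lipoprotein lipase Lpl at 0.22 and the fatty acid binding protein gene Fabp4 at 0.23. Fabp4, for example, had 10137, 8171, 11123 and 19323 on CLA arrays, against 29223, 31236 and 25087 on control arrays, so replicate 4 again stood highest among CLA glands. All of these genes share the same arrays and the same diet difference.

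Promoter windows of 300 bases, 250 before and 50 from an annotated start, were matched for all 10 genes in RefSeq (GRCm38.p6), 11 windows in all. The windows shown are those of Acacb and Mid1ip1, the genes with the change largest and smallest in size, and of Fasn and Acss2, added after their values were seen as the title gene and its nearest profile. Capitals mark each match to the CCAAT box (CCAAT, or ATTGG on the other strand), the E-box CACGTG, the sterol response element form TCACNCCAC or the GC box (GGGCGG, or CCGCCC on the other strand). The windows of Fasn and Acacb, like that of Acaca, belong to a start inside the annotated gene and not at its outer end, and so does 1 of the 2 windows of Me1.
Fasn, chr11:120824498-120824797, minus strand: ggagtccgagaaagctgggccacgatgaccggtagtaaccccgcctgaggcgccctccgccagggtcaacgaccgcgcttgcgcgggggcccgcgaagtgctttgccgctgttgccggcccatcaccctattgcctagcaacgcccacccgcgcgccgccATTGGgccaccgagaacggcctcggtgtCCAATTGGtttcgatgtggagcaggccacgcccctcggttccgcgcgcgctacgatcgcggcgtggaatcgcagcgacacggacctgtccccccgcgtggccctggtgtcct
Acss2, chr2:155517793-155518092, plus strand: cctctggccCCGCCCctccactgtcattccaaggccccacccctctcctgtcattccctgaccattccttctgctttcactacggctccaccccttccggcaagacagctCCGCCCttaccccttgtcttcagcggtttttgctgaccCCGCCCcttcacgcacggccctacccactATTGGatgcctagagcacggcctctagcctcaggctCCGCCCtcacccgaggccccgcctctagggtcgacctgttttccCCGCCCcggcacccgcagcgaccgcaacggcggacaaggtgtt
Acacb, chr5:114165268-114165567, plus strand: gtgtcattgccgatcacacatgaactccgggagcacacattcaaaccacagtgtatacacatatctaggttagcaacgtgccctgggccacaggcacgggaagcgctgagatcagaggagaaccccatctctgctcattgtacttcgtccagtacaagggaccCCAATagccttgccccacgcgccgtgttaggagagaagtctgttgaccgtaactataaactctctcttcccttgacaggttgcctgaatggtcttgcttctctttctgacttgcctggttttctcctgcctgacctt
Mid1ip1, chrX:10717115-10717414, plus strand: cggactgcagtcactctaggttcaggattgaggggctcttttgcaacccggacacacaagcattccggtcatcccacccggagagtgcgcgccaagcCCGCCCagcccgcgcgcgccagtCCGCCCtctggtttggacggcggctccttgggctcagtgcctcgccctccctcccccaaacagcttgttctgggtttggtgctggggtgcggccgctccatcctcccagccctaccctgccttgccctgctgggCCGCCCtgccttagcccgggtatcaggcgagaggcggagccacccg
The Fasn window holds 3 CCAAT boxes, beginning at -90, -62 and -59 from the start, of which the last 2 overlap. Acss2 has 1 at -73 beside 5 GC boxes, Acacb 1 at -87, and Mid1ip1 none but 3 GC boxes. Over the 11 windows 7 hold a CCAAT box, of Fasn, Acss2, Acacb, Acly, Slc25a1, Me1 and Thrsp, against 37.4% of all 32851 windows. That of Me1 lies in its inner window, and its outer window holds none. A GC box occurs in 5 of the 11, against 35.7%. The E-box occurs in 1, that of Slc25a1, against 7.15% of all windows, and the sterol response element form in 0, against 1.24%. Acly and Thrsp, with small changes, hold a CCAAT box as Fasn does, and these matches are a description of the letters only.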

How the data were processed

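The deposited table held linear signal intensities of 45101 probe sets on 7 arrays, made with MAS5 (no version named), per the submitters' processing notes. After trimming 2% from both ends, every array averaged 500.003, so the authors' scaling was kept, and changes are relative to the other transcripts of a gland. Median signals still differed without overlap, at 98.9 to 111.3 on CLA arrays and 112.0 to 113.4 on control arrays. With arrays centred on their medians the log2 change of Fasn was -1.15, against -1.23 in the main fit. The number of arrays limits the precision, and p-values measure the spread between these samples.

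Signals under 1 were set to 1 and log2 was taken. Control probe sets, 64 in number, were not tested. Of the others 34945 had 1 gene symbol and were used, 932 had several and 9160 none, and 34741 symbols were looked up by Entrez identifier in a RefSeq table (GRCm38.p6). Of 18193 genes, 12497 with a mean signal of at least 57.7, the 40th percentile of probe sets, were tested with limma 3.58.1 in R 4.3.3 (lmFit, eBayes with trend, 4.53 prior degrees of freedom), CLA minus control, two-sided, without covariates, with Benjamini-Hochberg adjustment over all genes and a threshold of 0.05. Exact permutation tests used scipy 1.17.1 in Python 3.11.15, and figures matplotlib 3.10.9. The fit was tested on simulated data.

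The 10 genes and all lists were chosen with earlier results of these data known. Named beside the 10 were the 3 genes of smallest p in each list and the 6 nearest to Fasn in profile without a clone name. Srebf1 was named as well, after its value was seen. Some listed genes were not analysed here. Alternatives were other normalizations (quantile, median centring), pseudocounts of 16 and 64, no filter or a 60th percentile filter, means of or all probe sets, untrended or robust variances, the title number as a block, only the arrays numbered from 28 in their titles, and leaving out each array.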

Additional observations from a re-analysis of the deposited data

Results flagged for a closer look

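Among 4 CLA glands, a gland was picked out when its gap to the nearest other, divided by the whole range, exceeded Dixon's critical value of 0.829. Chance alone does so for about 1 in 20 groups, and 9 of the 94 values examined did. Some of these values share genes, so they are not independent of each other. CLA replicate 4 stood apart by its high white adipocyte marker score (ratio 0.952, with a score of 0.26 against -0.88 to -0.82), its high citrate formation score (0.928) and its high Usf1 signal (0.882, at 116 against 91.8 to 94.4). The same gland had a low Mid1ip1 signal relative to the white adipocyte markers (0.862) and a low Epcam signal (0.853). The relative value contains the marker mean, so it is not separate from the marker score. The Mid1ip1 signal itself was highest among CLA glands there, at 1742 against 1444 to 1522. CLA replicate 3 stood apart by low signals of the caseins Csn2 (0.906, at 4449 against 34033 to 42033) and Csn1s2a (0.906) and of Sqle (0.845), and by a low basal and myoepithelial score (0.865). None of the 10 pathway genes exceeded the limit in its own signal.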

How the results depend on the processing

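No paired analysis was possible because the labels give no replicate numbers that join CLA and control glands. The number of pathway genes lower at an unadjusted p under 0.05 was 7 in the main fit, where 3.01% of all genes were. It was 6 with means of probe sets (Acacb lost) and with untrended variances (Thrsp lost). It was 7 with the title number as a block, and 6 to 8 with an array left out. The share of all genes under these other settings is not given here, so equal counts need not mean an equal result. With median centring 1 gene was higher, Mid1ip1. Over all genes the number past limma's adjusted threshold was 0, was 1 within title numbers starting with 28, and ran from 0 to 17 with an array left out, 17 without CLA replicate 4 and 2 without control replicate 1. As means of probe sets, dim ones included, Acly had 0.016, Aacs 0.078, Acacb -0.76, Thrsp -0.97 and Acaca minus Acacb -0.080. With 64 added, Fasn relative to the adipocyte markers had -0.046. Within title numbers starting with 28 Hmgcs1 had 0.0061. With an array left out Aacs ran from -0.49 to 0.0052, Mcat from -0.0078 to 0.23, Cbr4 from -0.13 to 0.23, Csn2 from -0.97 to 0.11 and Acaca minus Acacb from -0.23 to 0.25. The cause was not tested. Fasn ran from -1.24 to -1.13 under the settings that left out no single array, and from -1.39 to -1.13 with an array left out. Signals near the filter of 57.7 are dim, and no detection calls were used here.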
